A study of Mus musculus with 23 samples.

Results

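Cish, Socs1, Socs2, Socs3, Pim1, Pim2 and Osm are genes that are switched on by the transcription factor STAT5 and that feed back on, or act alongside, cytokine signalling. These 7 listed genes were read from an array of 19938 gene symbols, each from the probe set of highest mean signal among those assigned to that symbol alone. All 7 were on the array, and all 7 were among the 15542 genes bright enough to be tested. RNA came from bone marrow of mice that had all received a single 2 Gy dose of irradiation at 2 months of age. Leukemic samples were 10 from Pax5+/- mice and 3 of wild-type (WT) genotype. Preleukemic samples, 7 from Pax5+/- mice and 3 of WT genotype, were of the pro-B plus pre-B stages and were collected 3 weeks after exposure. Pax5+/- mice lack 1 copy of Pax5, which encodes the B-lineage commitment factor, and WT mice carry both. The labels call the leukemic samples pro-B cells in one place and leukemic marrow in another and state no sort for them. They give neither sex nor strain, and a further WT leukemia named in the study's design was not analysed here. Each Pax5+/- sample carries a mouse number of its own. For the WT samples the labels give only a running number, so p-values measure the spread between these samples. Leukemic and preleukemic samples differed in stage, in the cells taken and in time after the dose, and these cannot be told apart.

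When a cytokine such as interleukin-7 binds its receptor on a B cell precursor, JAK kinases phosphorylate STAT5, which moves to the nucleus and binds DNA at palindromic sites. Among its targets are CIS (the product of Cish) and the SOCS proteins, which bind receptors or JAK kinases and shut the signal down, in part by delivering them to a ubiquitin ligase through their SOCS box. PIM1 and PIM2 are serine/threonine kinases with no known need for upstream activation, so their activity follows their amount, and they promote survival and cell cycle entry. Oncostatin M is a secreted cytokine of the interleukin-6 family.

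The sequence that STAT dimers bind reads TTCNNNGAA on both strands. RefSeq promoter windows (GRCm38.p6), which run from 250 bases before to 50 bases after a gene's start, were available for 5 of the 7 genes, and both windows with a match are shown because they are the only members' windows that hold the letters. Letters in capitals mark the matches, and the windows are cut at the start site (Socs3) or 20 bases past it (Cish).
Cish, chr9:107296409-107296678, plus strand: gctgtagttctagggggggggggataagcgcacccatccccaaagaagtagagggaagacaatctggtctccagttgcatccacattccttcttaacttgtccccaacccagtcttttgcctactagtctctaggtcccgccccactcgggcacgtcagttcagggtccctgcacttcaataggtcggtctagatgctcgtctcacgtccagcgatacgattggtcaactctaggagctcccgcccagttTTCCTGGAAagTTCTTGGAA
Socs3, chr11:117969367-117969616, minus strand: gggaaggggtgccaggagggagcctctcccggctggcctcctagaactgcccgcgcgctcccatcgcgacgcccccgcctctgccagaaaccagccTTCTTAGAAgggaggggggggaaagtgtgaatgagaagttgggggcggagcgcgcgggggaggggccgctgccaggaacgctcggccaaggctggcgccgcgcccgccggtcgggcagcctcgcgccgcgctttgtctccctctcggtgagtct
The Cish window held 2 matches, which began at positions 1 and 12 counted from the RefSeq start. The Socs3 window held 1, which began at position -154 counted from that window's own start site. That start site lies inside the annotated RefSeq span of Socs3, not at its outer end. The windows of Socs1 and Pim2 and both windows of Pim1, which has 2 annotated starts, held none. Of all 32851 windows in the table, 8.3% held at least 1 match and 0.457% held at least 2. These matches are descriptions of the letters; binding was not measured.

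Array medians lay between 6.06 and 6.2 on the deposited log2 scale. Precision is limited by how many arrays each group has. Of 11 B cell precursor markers, 9 to 11 lay above the array median on all arrays of a group, Vpreb1, Igll1 and Ebf1 in every group. Their levels were lower in leukemia, where 6 of 11 were lower in Pax5+/- and 8 of 11 in WT mice and none were higher. Of all tested genes, 36.5% were called lower in Pax5+/- and 19.3% in WT leukemia. The recombinase genes Rag2 and Rag1 were 7.00-fold and 5.81-fold lower in Pax5+/- leukemia. The list's mean log2 level was 10.91 to 11.35 in Pax5+/- preleukemic, 9.47 to 10.69 in Pax5+/- leukemic, 11.05 to 11.31 in WT preleukemic and 8.44 to 10.11 in WT leukemic samples. Of mature B cell markers, 3 of 5 were lower in either genotype. Markers of some other cells were higher in leukemia: 11 of 14 neutrophil, 9 of 12 monocyte and macrophage, and 6 of 6 megakaryocyte markers in Pax5+/- mice, where 28% of all tested genes were called higher. In WT mice these were 1 of 14, 6 of 12 and 6 of 6, where 17.9% of all genes were called higher. Erythroid and NK cell markers did not follow, with 0 of 6 and 1 of 8 higher in Pax5+/- leukemia. In Pax5+/- samples the mean neutrophil marker level was 6.15 to 6.81 before leukemia and 6.17 to 10.95 in leukemia. Their monocyte mean was 6.02 to 6.26 and 6.98 to 9.35. In WT samples the neutrophil mean was 6.49 to 10.65 before leukemia and 9.37 to 10.32 in leukemia. The WT monocyte mean was 6.22 to 7.29 and 8.46 to 8.55. Pax5+/- leukemias 4 and 7, with neutrophil means of 6.17 and 6.44, lay within the Pax5+/- preleukemic range for neutrophil markers. Their monocyte means, 7.25 and 7.46, lay above the Pax5+/- preleukemic range. Leukemia 4 also had the highest megakaryocyte mean of its group (11.13, against 6.81 to 7.01 in Pax5+/- preleukemic samples). By neutrophil, monocyte, NK cell or erythroid markers 5 libraries stood apart. These were Pax5+/- leukemia 6 (neutrophil mean 10.95), Pax5+/- leukemia 2 (monocyte mean 9.35), WT leukemia 15 (NK cell mean 9.44), WT leukemia 17 (erythroid mean 9.45, with 15 at 9.28 and 14 at 7.10) and WT preleukemic sample 20 (neutrophil mean 10.65). In bulk RNA, fewer cells of a type and less RNA per cell cannot be told apart.

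In Pax5+/- mice, leukemia and the preleukemic stage were set against each other with all 4 groups in one limma fit, in which 64.6% of all tested genes passed an adjusted p of 0.05. Of the 7 genes, 6 passed. Cish, Socs2 and Socs3 were higher in leukemia, against a background of 28% of genes called higher, and Socs1, Pim1 and Pim2 were lower, against 36.5% called lower. With most genes on the array called, 6 of 7 is not a result about these genes as a set. Pim2 was the only one of the 7 whose leukemic and preleukemic values did not overlap, as was true of 22.4% of all tested genes.

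**Figure D1:**
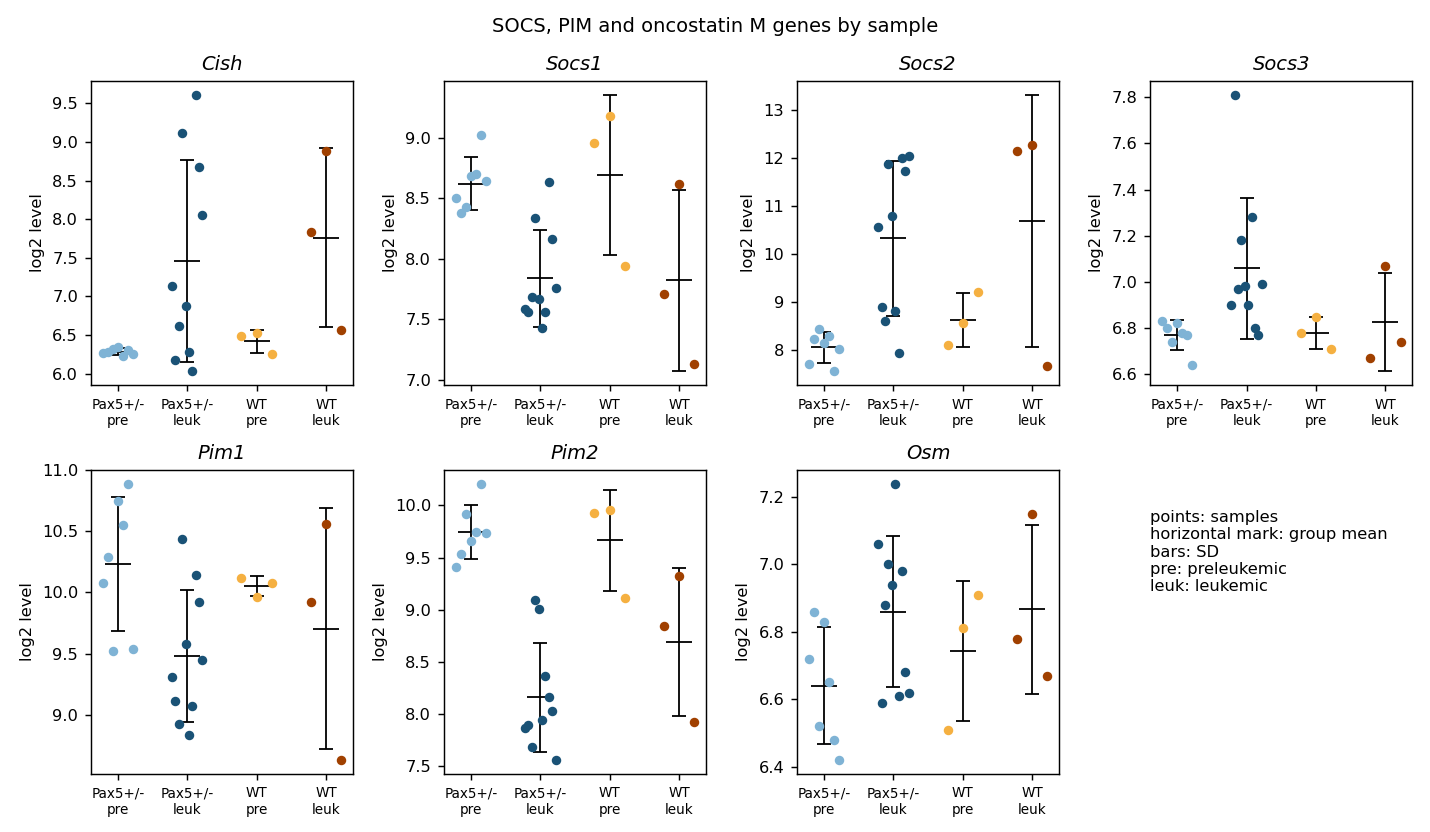
Log2 array level of each gene (vertical axes, each with its own range) in every sample of the 4 groups, with the group mean and SD. Pax5+/- leukemias spread from 6.03 to 9.61 for Cish and from 7.93 to 12.04 for Socs2, while the 7 Pax5+/- preleukemic samples stay within 0.11 and 0.88 log2 units.

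Cish, on chromosome 9 and read by probe set 10588577, encodes CIS, which occupies STAT5 docking sites on cytokine receptors. In the 7 Pax5+/- preleukemic samples its log2 level was at lowest 6.23, at the median 6.28 and at highest 6.34. In the 10 Pax5+/- leukemias it was at lowest 6.03, at the median 7.00 and at highest 9.61. Of the 10 leukemias, 7 lay above every preleukemic sample and 2, samples 2 and 7, lay below all of them. The leukemic mean of 7.46 ± 1.31 (SD, n = 10) exceeded the preleukemic mean of 6.28 ± 0.04 (SD, n = 7) by 1.17 on the log2 scale, a 2.25-fold difference (SE 0.45, limma adjusted p = 0.0286). An exact two-sided permutation test of this gene alone gave p = 0.0284. The preleukemic level lay only 0.10 to 0.22 above the array median, so array background limits how large a fold can be read. The call was lost without leukemia 4 or without leukemia 9, where the adjusted p reached at most 0.0516, and over all 17 omissions of 1 sample the fold stayed between 1.91 and 2.51.

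Socs2, on chromosome 10, encodes a SOCS protein best known for limiting growth hormone signalling. Its log2 level (probe set 10394674) was 7.56, 8.15 and 8.44 at the lowest, median and highest of the Pax5+/- preleukemic samples and 7.93, 10.69 and 12.04 in the leukemias. Of the 10 leukemias, 9 lay above every preleukemic sample, and leukemia 7 lay within their range. This was the widest spread of the 7 genes, a 17.3-fold range between leukemias. The leukemic mean was 10.33 ± 1.61 (SD, n = 10) against 8.06 ± 0.32 (SD, n = 7), a 4.81-fold rise (log2 difference 2.27, SE 0.66, limma adjusted p = 0.00513; exact permutation p = 0.00288). A second Socs2 probe set, dimmer but closely tracking the first over the 23 arrays (r = 0.97, a description over arrays), also rose in the alternative that tested it.

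Socs1, on chromosome 16, encodes an inhibitor that binds JAK kinases directly and is induced by both STAT5 and interferon signalling. It moved the other way. Its log2 level (probe set 10437668) was 8.38, 8.64 and 9.02 at the lowest, median and highest of the Pax5+/- preleukemic samples and 7.43, 7.68 and 8.63 in the leukemias. Of the 10 leukemias, 9 lay below every preleukemic sample, and leukemia 8 alone reached into their range. The mean fell from 8.62 ± 0.22 (SD, n = 7) to 7.84 ± 0.40 (SD, n = 10), a level 1.72-fold lower (log2 difference -0.78, SE 0.21, limma adjusted p = 0.00252; exact permutation p = 0.000823).

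Socs3, on chromosome 11, encodes the inhibitor best known for acting on receptors of the interleukin-6 family and on the G-CSF receptor. Its log2 level (probe set 10393449) was 6.64, 6.78 and 6.83 at the lowest, median and highest of the Pax5+/- preleukemic samples and 6.77, 6.98 and 7.81 in the leukemias. Of the 10 leukemias, 8 lay above every preleukemic sample. The highest was leukemia 2, the library with the highest monocyte marker mean (9.35). The rise was small, 1.22-fold (log2 difference 0.29, SE 0.11, limma adjusted p = 0.0244; exact permutation p = 0.0108), and without leukemia 2 the difference was 0.21 and still passed. The call was lost without preleukemic sample 24 (adjusted p = 0.0502), after median centring of the arrays (adjusted p = 0.0578) and after quantile normalization (adjusted p = 0.345), and a second, dimmer Socs3 probe set that lay below the array median in all 10 leukemias gave the opposite sign (log2 difference -0.14, adjusted p = 0.0125).

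Pim1, on chromosome 17, encodes a kinase first found as a site of retroviral insertion in mouse lymphomas. Its log2 level (probe set 10443527) was 9.52, 10.29 and 10.89 at the lowest, median and highest of the Pax5+/- preleukemic samples and 8.83, 9.38 and 10.44 in the leukemias. Of the 10 leukemias, 6 lay below every preleukemic sample, and leukemias 4, 8, 9 and 5 lay within their range. The mean was 1.69-fold lower in leukemia (9.48 ± 0.54, SD, n = 10, against 10.23 ± 0.55, SD, n = 7; log2 difference -0.75, SE 0.27, limma adjusted p = 0.0188; exact permutation p = 0.0154). The call was lost without preleukemic sample 23 (adjusted p = 0.0505) and without leukemias 2 and 6 together (log2 difference -0.63, adjusted p = 0.0578).

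Pim2, on chromosome X, encodes a related kinase that phosphorylates BAD and translation regulators. Its log2 level (probe set 10598467) was 9.41, 9.74 and 10.21 at the lowest, median and highest of the Pax5+/- preleukemic samples and 7.56, 7.99 and 9.09 in the leukemias. All 10 leukemias lay below all 7 preleukemic samples, with leukemias 4 and 5 nearest to them. The mean fell from 9.75 ± 0.26 (SD, n = 7) to 8.16 ± 0.52 (SD, n = 10), a level 3.00-fold lower (log2 difference -1.59, SE 0.22, limma adjusted p = 3.71e-06; exact permutation p = 0.000103). Omitting any 1 of the 17 samples left the log2 difference between -1.69 and -1.51, past the threshold each time.

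Osm, on chromosome 11, was dim throughout, 0.27 to 1.11 above the array median. Its log2 level (probe set 10373912) was 6.42, 6.65 and 6.86 at the lowest, median and highest of the Pax5+/- preleukemic samples and 6.59, 6.91 and 7.24 in the leukemias. The groups overlapped, with 6 of 10 leukemias above every preleukemic sample. The difference of 0.22 on the log2 scale (SE 0.10) did not pass the limma fit (adjusted p = 0.0622), although the exact permutation test of this gene alone gave p = 0.0469. It passed with array weights (log2 difference 0.27, adjusted p = 0.0126), with the mouse letter as a random block (adjusted p = 0.0358) and in 6 of the 17 fits that left out 1 sample.

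Some markers of other cells also differed between the stages. When the first component of 86 marker genes entered the fit as a covariate, 1 of the 7 genes still passed in Pax5+/- mice. This was Cish, with a log2 difference of 2.46 (limma adjusted p = 0.0308), larger than the 1.17 without the covariate. The Socs2 difference was also larger, 3.03 against 2.27, but did not pass (limma adjusted p = 0.0859). In that fit the differences of Pim2, Pim1 and Socs3 shrank to -0.82, -0.17 and 0.16 (limma adjusted p = 0.125, 0.845 and 0.616). The Socs1 difference turned to 0.06 (limma adjusted p = 0.926) and that of Osm to -0.01 (limma adjusted p = 0.985). The component is itself tied to stage and can take up stage differences whatever their source; over all genes the number called fell from 10034 to 3659.

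**Figure D2:**
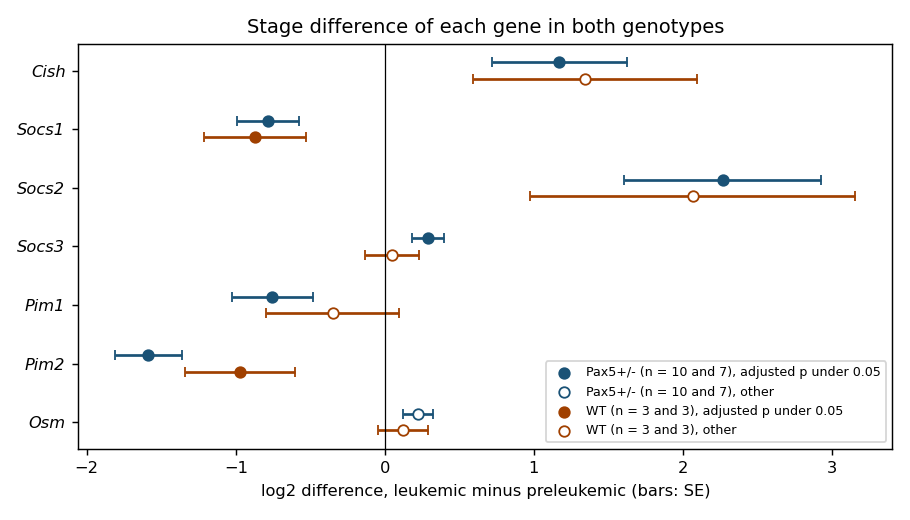
Log2 difference between leukemic and preleukemic means for each gene (horizontal axis), with bars of 1 SE from the limma fit, in Pax5+/- mice (10 against 7 samples) and WT mice (3 against 3). Filled points passed an adjusted p of 0.05; the points of both genotypes lie on the same side of 0 for every gene, and the WT bars are the wider ones.

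In WT mice the same comparison rested on 3 leukemias and 3 preleukemic samples, and 37.2% of all tested genes passed. Of the 7 genes, 2 passed, Socs1 and Pim2, and both were lower in leukemia, against 19.3% of genes called lower and 17.9% called higher. Socs1 had log2 levels of 7.71, 8.62 and 7.13 in leukemias 14, 15 and 17 and of 8.96, 9.18 and 7.94 in preleukemic samples 18, 19 and 20. Leukemia 15 lay within the preleukemic range and the other two below it. The leukemic mean was 1.83-fold lower (log2 difference -0.87, SE 0.34, limma adjusted p = 0.0498).

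Pim2 had log2 levels of 8.84, 9.32 and 7.92 in the WT leukemias and 9.93, 9.96 and 9.11 in the WT preleukemic samples, in the same order of samples. Again leukemia 15 alone reached into the preleukemic range, and the mean was 1.96-fold lower (log2 difference -0.97, SE 0.37, limma adjusted p = 0.0434). Both calls were lost without any 1 of samples 14, 17, 18 or 19, with log2 differences from -1.27 to -0.53 for Socs1 and from -1.29 to -0.59 for Pim2 over all omissions. Without samples 15, 17 and 20 together, which leaves WT leukemia 14 alone against 2 preleukemic samples and assumes that it varies like the other groups, the difference was -1.11 for Pim2 (adjusted p = 0.0899) and 3.81 for Socs2 (adjusted p = 0.0459). Xist levels, which follow sex, moved with stage in the 6 WT samples. With Xist in the fit neither Socs1 nor Pim2 passed (limma adjusted p = 0.0822 for Socs1 and 0.0816 for Pim2).

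Cish in WT mice had log2 levels of 7.83, 8.88 and 6.57 in leukemias 14, 15 and 17 and of 6.48, 6.52 and 6.25 in preleukemic samples 18, 19 and 20. All 3 leukemias lay above all 3 preleukemic samples, as the values of 44.4% of tested genes failed to overlap in these groups. The log2 difference of 1.34 (SE 0.75) did not pass (limma adjusted p = 0.161). An exact permutation test gave p = 0.1, the smallest that 3 against 3 samples allow.

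Socs2 had log2 levels of 12.14, 12.27 and 7.67 in the WT leukemias and 8.10, 8.57 and 9.21 in the WT preleukemic samples. Leukemias 14 and 15 were far above every preleukemic sample and leukemia 17 was below them all. The log2 difference of 2.07 (SE 1.09) did not pass (limma adjusted p = 0.138), but 1 library decided this: without leukemia 17 the difference was 3.58, 11.9-fold, with an adjusted p of 0.0102. It also passed with array weights (log2 difference 2.61, adjusted p = 0.0259). Pim1 (log2 difference -0.35, adjusted p = 0.549), Socs3 (0.05, adjusted p = 0.853) and Osm (0.12, adjusted p = 0.576) did not pass in limma's fit. Their WT leukemic values were 9.92, 10.56 and 8.63 for Pim1, 6.67, 7.07 and 6.74 for Socs3, and 6.78, 7.15 and 6.67 for Osm, with leukemia 15 highest for each of the 3 genes. The WT preleukemic values were 10.12, 9.96 and 10.08 for Pim1, 6.78, 6.85 and 6.71 for Socs3, and 6.51, 6.81 and 6.91 for Osm.

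The genotypes were compared at each stage to ask whether losing 1 Pax5 copy moved these genes. Before leukemia 0.624% of all tested genes differed between Pax5+/- and WT, and in leukemia 0.341% did. None of the 7 genes passed in limma's fit at either stage, and none had an unadjusted p under 0.05. Before leukemia the largest difference was that of Socs2, which was 0.57 lower in Pax5+/- mice on the log2 scale (SE 0.92, adjusted p = 0.958; exact permutation p = 0.0833). In leukemia it was that of Pim2, which was 0.53 lower in Pax5+/- mice (SE 0.30, adjusted p = 0.923; exact permutation p = 0.199). The test of whether the stage difference itself differed by genotype called 0.0965% of genes and none of the 7, again with no unadjusted p under 0.05. The largest such difference among the 7 was that of Pim2 (log2 -0.61, SE 0.43, adjusted p = 0.853). With 3 WT samples per stage these standard errors leave room for sizeable differences, and a missed threshold does not show that the genotypes were alike.

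The order of the 4 group means was read for each gene with the spread of its neighbours. For Cish it ran from Pax5+/- preleukemic through WT preleukemic and Pax5+/- leukemic to WT leukemic samples, and no neighbouring means lay further apart than both their SDs. For Socs2 the order was the same, and the steps from Pax5+/- to WT preleukemic samples (0.57) and from there to Pax5+/- leukemias (1.70) exceeded both SDs. For Socs1 the mean of the WT leukemias was lowest and the step from Pax5+/- leukemic to preleukemic samples (0.78) was the only one to exceed both SDs. For Pim2 the mean of the Pax5+/- leukemias was lowest and the step from WT leukemic to WT preleukemic samples (0.97) was the only such step. For Pim1, Socs3 and Osm no neighbouring means differed by more than both SDs. The ranges of neighbouring groups overlapped in every case.

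The Pax5+/- leukemias differed widely among themselves, most of all in Cish and Socs2. Leukemia 8 had the highest Cish (9.61) and Socs1 (8.63) levels and stood at 12.00 for Socs2 and 10.14 for Pim1. Leukemia 4 had the highest Pim1 (10.44) and Pim2 (9.09) levels, with Cish at 9.12 and Socs2 at 11.88. Leukemias 8, 4, 9 and 10 were the top 4 for Cish, for Socs1 and for Socs2, and 3 of these 4 were among the top 4 for Pim1. At the other end, leukemia 7 had the lowest Cish (6.03) and Socs2 (7.93) levels, and leukemias 2, 3, 6 and 7 held the 4 lowest values of Socs2, from 7.93 to 8.90. Above a gap of 1.67 log2 units the other 6 leukemias ran from 10.57 to 12.04.

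**Figure D3:**
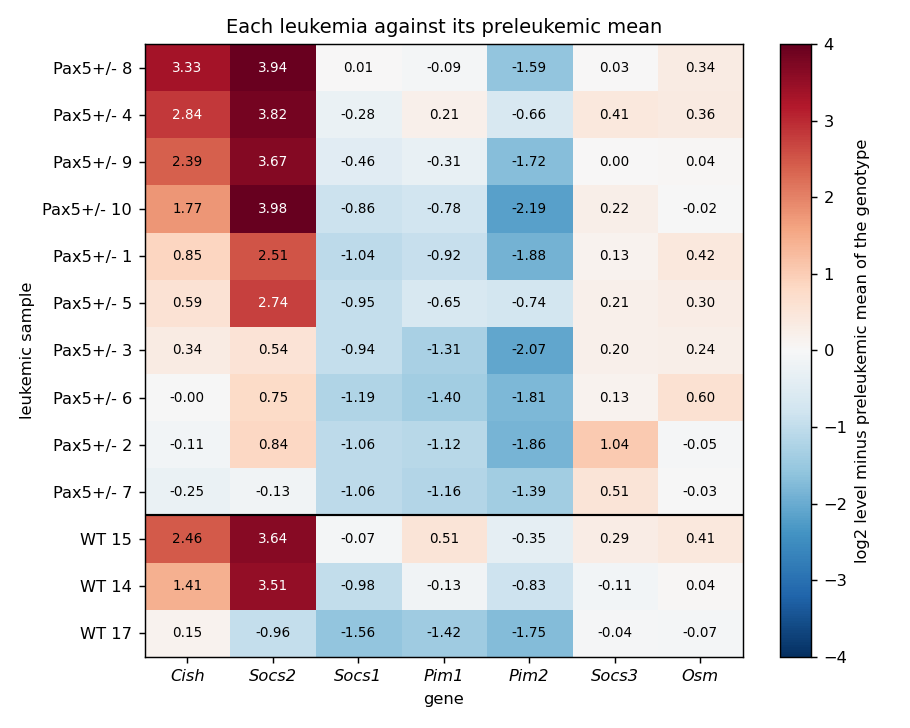
Log2 level of each gene (columns) in each leukemia (rows, ordered by Cish within a genotype) minus the preleukemic mean of its genotype, with the value printed in each cell and red for higher. Leukemias 8, 4, 9 and 10 sit 1.77 to 3.33 above the mean for Cish and 3.67 to 3.98 above it for Socs2, while Pim2 is below the mean in all 13 leukemias.

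Across the 10 Pax5+/- leukemias, Cish correlated with Socs1 (Pearson r = 0.94, permutation p = 7e-05, adjusted p = 0.00245; Spearman rho = 0.91, adjusted p = 0.0231). Without leukemias 4 and 8, the farthest from the median of Cish, r was 0.88. Cish correlated with Pim1 as well (r = 0.91, permutation p = 0.00038, adjusted p = 0.00665; rho = 0.85, adjusted p = 0.0351; r = 0.84 without leukemias 4 and 8). Socs1 and Pim1 gave r = 0.90 (permutation p = 0.00082, adjusted p = 0.00957; rho = 0.84, adjusted p = 0.0353; r = 0.84 without leukemias 4 and 8). Socs1 and Pim1, whose group means were lower in leukemia, were thus higher in the leukemias with more Cish. The values were adjusted over 35 relations, the 21 pairs of these genes and each gene against the neutrophil and the monocyte marker mean. Because Socs2 split the leukemias at its gap, an r over all 10 can reflect that split alone. Over all 10, Socs2 passed the adjustment with Cish (r = 0.89, permutation adjusted p = 0.0129, rho = 0.87, adjusted p = 0.0351). It also passed with Pim1 (r = 0.84, permutation adjusted p = 0.0199, rho = 0.82, adjusted p = 0.0423). The pair of Socs2 with Socs1 missed the adjustment over all 10 (permutation adjusted p = 0.0975). Within the 6 leukemias above the gap no relation of Socs2 with the other 6 genes passed a Bonferroni adjustment over those 6 tests. Its r there was 0.85 with Cish (exact permutation p = 0.0472, 0.283 after adjustment; rho = 0.60), 0.72 with Socs1 (exact permutation p = 0.133; rho = 0.66) and 0.61 with Pim1 (exact permutation p = 0.228; rho = 0.37).

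**Figure D4:**
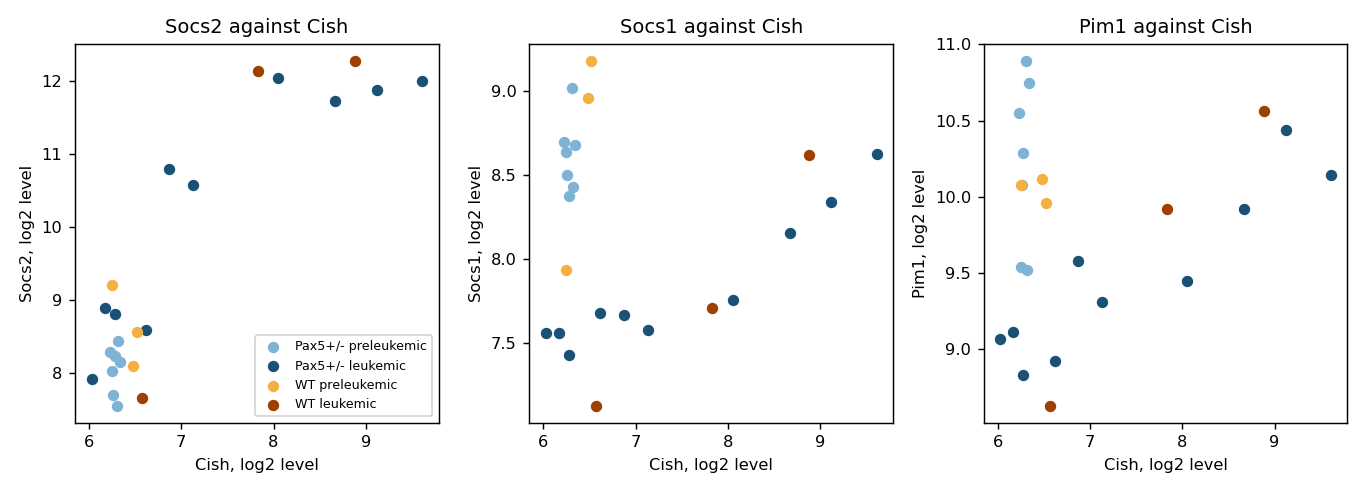
Log2 levels of Socs2, Socs1 and Pim1 (vertical axes) against Cish (horizontal axes), 1 point per sample, coloured by group. In the dark blue Pax5+/- leukemias all 3 genes are higher where Cish is higher. The preleukemic samples stand at a Cish level of 6.23 to 6.52, near the array medians, and no relation among them was tested.

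No relation of Pim2, Socs3 or Osm with another of the 7 genes passed the adjustment; the Pim1 and Pim2 pair gave r = 0.56 (permutation p = 0.0916, adjusted p = 0.267; rho = 0.50). Marker levels were set beside these relations. The neutrophil mean gave r = -0.53 with Cish (permutation adjusted p = 0.328), -0.63 with Socs1 (0.266) and -0.61 with Pim1 (0.267), and none passed. The monocyte mean gave r = -0.55 with Cish (permutation adjusted p = 0.267), -0.48 with Socs1 (0.328) and -0.57 with Pim1 (0.267). Socs2 gave r = -0.30 with the neutrophil mean (0.596) and -0.49 with the monocyte mean (0.328). Those Socs2 values were -0.88 and -0.80 without leukemias 3 and 7, and 0.15 and -0.30 without leukemias 2 and 6. Without leukemias 2 and 6, an omission chosen after seeing the data, r was 0.93 for Cish and Socs1, 0.90 for Cish and Pim1 and 0.87 for Socs1 and Pim1. With the mean of each mouse-number letter removed (9 leukemias of 2 letters), these 3 values were 0.97, 0.94 and 0.92. Socs3 and the monocyte mean gave r = 0.60 (permutation adjusted p = 0.267), which was -0.07 without leukemias 7 and 2, so that relation rested on those samples.

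The WT leukemias are too few for a correlation. Leukemia 15 was above both others for every one of the 7 genes. Leukemia 17 was lowest for Cish, Socs2, Socs1, Pim1, Pim2 and Osm, and leukemia 14 was lowest for Socs3. Leukemia 15 had the highest NK cell marker mean of all samples (9.44) and the lowest B cell precursor mean (8.44), and the part of those cells in its values was not tested.

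The genes whose residuals from the 4 group means were most like each gene's own were taken from 15541 other genes over the 23 samples, with r as a description only. For Cish these were 6430571L13Rik (r = 0.92), Ngly1 (0.92) and Chrna4 (0.90); Socs2 came at rank 11 (0.85), Socs1 at rank 57 (0.77) and Pim1 at rank 67 (0.75). For Socs2 they were Tbc1d32 (0.93), Atp10a (0.93) and Pde8a (0.92), with Cish at rank 15. For Socs1 they were Syndig1l (0.83), Mgat3 (0.81) and Pigz (0.80), with Cish at rank 7, and for Pim1 they were Hemk1 (0.77), Zfp287 (0.75) and Cish itself (0.75). For Pim2 they were Casp6 (0.89), Fchsd1 (0.78) and Ap5z1 (0.78). For Socs3 they were Crybg1 (0.95), Slc4a11 (0.88) and Mvp (0.85), and leukemia 2 was the highest Pax5+/- leukemia for all of these as it was for Socs3. For Osm they were Add1 (0.75), Tmem154 (0.72) and Ddx60 (0.69). Leukemia 4 had the highest value of its group for Ngly1 (9.22), Chrna4 (9.85), Atp10a (8.81) and Casp6 (9.85). Some of the named genes were dim. Mgat3 ran from 5.02 to 5.39, where the 30th percentiles of the arrays lay between 5.11 and 5.31. Group means ran from 5.29 to 5.73 for 6430571L13Rik and from 5.20 to 5.31 for Slc4a11.

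Around these genes the pathway was read from 7 lists of genes with known roles. The median log2 difference between leukemic and preleukemic samples over all tested genes was -0.05 in Pax5+/- and -0.06 in WT mice. Beside the counts that follow stand 28% of all tested genes called higher and 36.5% lower in Pax5+/- leukemia, and 17.9% and 19.3% in WT leukemia. With lists of 6 to 12 genes, no count is read as particular to its list. At most 4 passing genes of smallest p were taken from each list, 26 in Pax5+/- leukemia. With the marker component as a covariate 15 of them no longer passed, among them Csf2rb, Csf2rb2, Il2ra, Stat4, Cbl, Ptpn6, Ptpn11, Cdc25a and Osmr, while Ghr, Stat6, Stat2, Cdkn1b, Cdc25c, Bcl2l1, Mcl1, Myc, Bcl2, Lifr and Clcf1 still did. Of the 21 taken in WT leukemia, 13 no longer passed with that covariate and 10 were lost without 1 sample or another.

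Among 9 tested cytokine receptor genes upstream of STAT5, 3 were higher and 1 lower in Pax5+/- leukemia, with a median of 0.27. Csf2rb, the shared signalling chain for interleukin-3, interleukin-5 and GM-CSF, rose 2.97-fold (adjusted p = 7.83e-05), and its mouse-specific relative Csf2rb2 rose 2.77-fold (adjusted p = 0.000156). These are near-identical copies, so their probes may share signal. Ghr, the growth hormone receptor, rose 1.42-fold (adjusted p = 1.78e-05), and Il2ra, the interleukin-2 receptor alpha chain that marks pre-B cells, was 2.44-fold lower (adjusted p = 0.00931). In WT leukemia 2 receptor genes were higher and 1 lower, with a median of -0.06. Ghr rose 1.45-fold (adjusted p = 0.00375), Epor, the erythropoietin receptor, rose 1.82-fold (adjusted p = 0.0173) and Il3ra, the interleukin-3 receptor alpha chain, was 1.54-fold lower (adjusted p = 0.000957). In the same samples 3 of 6 erythroid markers, Epor among them, were higher, with an erythroid mean of 9.28 and 9.45 in WT leukemias 15 and 17 and 7.10 in leukemia 14. With leukemia 14 alone against preleukemic samples 18 and 19, a value that rests on 1 leukemia, the Epor log2 difference was -0.03 (adjusted p = 0.957).

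Of 9 tested JAK and STAT genes, 1 was higher and 2 lower in Pax5+/- leukemia (median 0.23), and also 1 higher and 2 lower in WT leukemia (median -0.14). Stat4, which acts downstream of interleukin-12, rose 3.91-fold in Pax5+/- leukemia (adjusted p = 2.3e-06), while Stat6, the interleukin-4 signal carrier, was 1.37-fold lower (adjusted p = 9.1e-07) and Stat2, an interferon signal carrier, 1.52-fold lower (adjusted p = 0.000124). In WT leukemia Stat6 was 1.55-fold lower (adjusted p = 3.93e-05), Tyk2 1.24-fold lower (adjusted p = 0.0437) and Stat5a 2.49-fold higher (adjusted p = 0.0498). The Stat5a call rested on few samples: its log2 difference of 1.32 ranged from 0.47 to 2.06 when 1 of the 6 samples was left out, and the call was lost without 14, 15, 18, 19 or 20. The Tyk2 call was lost without any 1 of the 6 samples (limma adjusted p up to 0.103). The Stat5 genes, Jak1 and Jak2 were also read by sample, a choice made after their values had been seen. Stat5a reached 11.08 in WT leukemia 15, the WT leukemia with the most Cish, and 9.88 in Pax5+/- leukemia 6. Stat5b was highest among the Pax5+/- leukemias in leukemia 6 (11.09, against a group mean of 8.88 ± 0.81, SD, n = 10), whose Cish level of 6.28 lay within the preleukemic range. Jak1 was highest in leukemia 4 (12.61, against 10.72 ± 0.69, SD, n = 10), which was second in Cish. Jak2 was highest in leukemia 2 (10.36, against 8.65 ± 0.75, SD, n = 10), whose Cish level of 6.17 lay below every preleukemic sample. Relations of these JAK and STAT genes with Cish were not tested.

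Of 11 other inhibitors of JAK-STAT signalling, 3 were higher and 6 lower in Pax5+/- leukemia (median -0.24), and 1 was higher and 2 lower in WT leukemia (median -0.23). Cbl, a ubiquitin ligase, rose 1.63-fold (adjusted p = 1.69e-06). The phosphatases Ptpn11 (SHP-2) and Ptpn6 (SHP-1) rose 1.67-fold (adjusted p = 2.6e-05) and 1.49-fold (adjusted p = 0.00013). Of these, SHP-2 is known more for promoting cytokine signals than for blocking them. Pias2, a SUMO ligase that binds STATs, was 1.23-fold lower (adjusted p = 0.000402). In WT leukemia Ptpn11 rose 1.51-fold (adjusted p = 0.0252), and Pias3 and Pias2 were 1.66-fold and 1.30-fold lower (adjusted p = 0.00225 and 0.00802).

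The 8 remaining SOCS family genes and SOCS box partners changed little. In Pax5+/- leukemia 3 were higher and 1 lower (median 0.11), and in WT leukemia 2 were higher and none lower (median 0.04). Rnf7, the RING protein that pairs with cullin 5, rose 1.32-fold (adjusted p = 0.00407), Elob, which encodes elongin B, rose 1.11-fold (adjusted p = 0.0113), Socs6 rose 1.15-fold (adjusted p = 0.0342) and Socs4 was 1.14-fold lower (adjusted p = 0.0157). Median centring ended the calls of Elob and Socs6, and Socs6 was also lost with quantile normalization and without any 1 of 6 samples (adjusted p up to 0.0885). In WT leukemia Eloc, which encodes elongin C, and Elob rose 1.40-fold and 1.17-fold (adjusted p = 0.0249 and 0.0361).

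Of 8 tested genes for the kinase Pim3 and for PIM substrates, 3 were higher and 2 lower in Pax5+/- leukemia (median -0.02), and 2 were higher and 1 lower in WT leukemia (median -0.01). Cdkn1b, which encodes the cell cycle inhibitor p27, was 2.54-fold lower in Pax5+/- (adjusted p = 9.48e-09) and 2.33-fold lower in WT leukemia (adjusted p = 0.000121). The phosphatase genes Cdc25c and Cdc25a, which drive cell cycle transitions, rose 2.80-fold (adjusted p = 1.66e-06) and 1.66-fold (adjusted p = 0.000569) in Pax5+/- leukemia. In WT leukemia they rose 2.33-fold (adjusted p = 0.00612) and 2.53-fold (adjusted p = 0.000682). Eif4b, a translation initiation factor, rose 1.15-fold in Pax5+/- leukemia (adjusted p = 0.00763), a call that median centring ended.

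**Figure D5:**
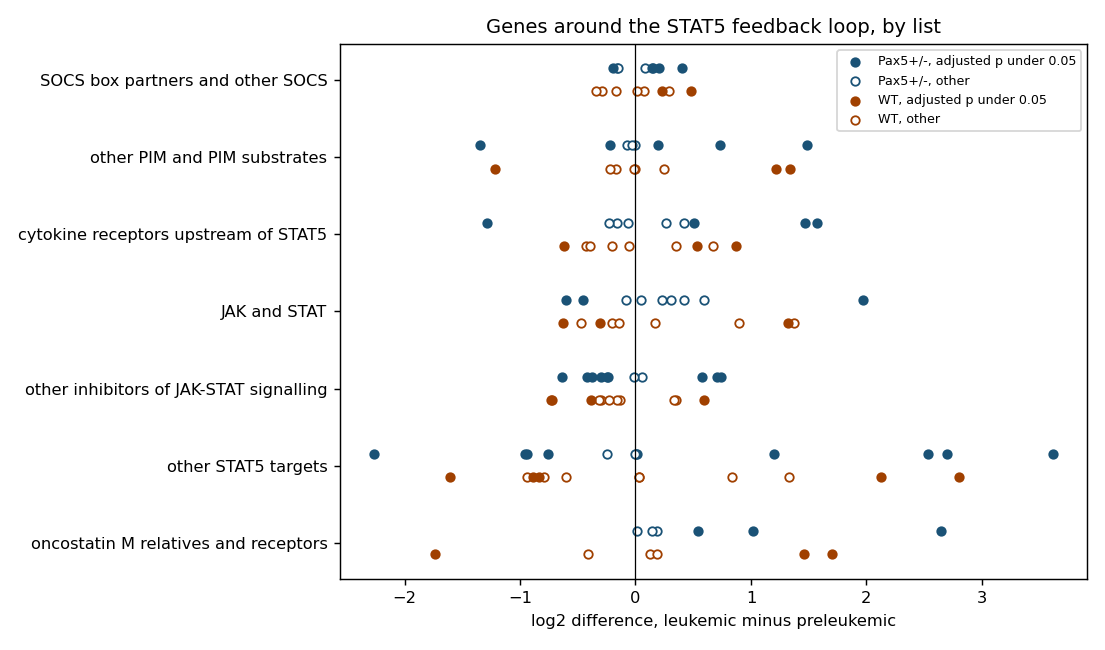
Log2 difference between leukemic and preleukemic means (horizontal axis) for every tested gene of the 7 lists, 1 point per gene, in Pax5+/- (blue) and WT mice (orange), filled where the adjusted p is under 0.05. The STAT5 targets hold the widest spread, from -2.26 for Bcl2l1 to 3.62 for Myc in Pax5+/- mice.

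The 12 other STAT5 targets also split, with 4 higher and 4 lower in Pax5+/- leukemia (median 0.00) and 2 higher and 3 lower in WT leukemia (median -0.29). Bcl2l1, which encodes the survival protein BCL-XL, was 4.81-fold lower (adjusted p = 3.39e-11) and Mcl1, another survival gene, 1.92-fold lower (adjusted p = 2.32e-09) in Pax5+/- leukemia. Myc, a growth regulator, rose 12.3-fold (adjusted p = 1.31e-08), and Bcl2, the founding survival gene of its family, rose 6.47-fold (adjusted p = 1.44e-06). In WT leukemia Mcl1 was 1.85-fold lower (adjusted p = 2.89e-05), Bcl2l1 3.04-fold lower (adjusted p = 3.27e-05) and Ccnd3, a D-type cyclin, 1.79-fold lower (adjusted p = 0.0221), and Myc rose 6.98-fold (adjusted p = 0.000659).

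Of 6 tested oncostatin M relatives and receptors, 3 were higher and none lower in Pax5+/- leukemia (median 0.37), and 2 were higher and 1 lower in WT leukemia (median 0.16). Lifr, whose product is a receptor chain for leukemia inhibitory factor, rose 6.28-fold in Pax5+/- (adjusted p = 1.05e-06) and 3.26-fold in WT leukemia (adjusted p = 0.022). Osmr, the specific oncostatin M receptor chain, rose 2.02-fold (adjusted p = 3.13e-05) and 2.76-fold (adjusted p = 0.000468). The WT Lifr call was lost without sample 15, 17, 18 or 19 (limma adjusted p up to 0.137). In Pax5+/- preleukemic samples the mean levels of Lifr (5.84) and Osmr (5.40) lay below the array medians, which limits how large a fold can be read. Clcf1, a cytokine of the same family, was the only gene of these 7 lists to differ by genotype. Its log2 level was 8.88, 8.90 and 8.01 in WT preleukemic samples 18, 19 and 20 and 7.15, 6.65 and 6.78 in WT leukemias 14, 15 and 17, which lay below all of them. In the Pax5+/- preleukemic samples it ran from 6.72 to 7.55 (mean 7.18 ± 0.39, SD, n = 7) and in the Pax5+/- leukemias from 6.91 to 8.49 (mean 7.73 ± 0.53, SD, n = 10), with overlap. It was 2.67-fold lower in Pax5+/- than in WT mice before leukemia (adjusted p = 0.0263). It rose 1.46-fold in Pax5+/- leukemia (adjusted p = 0.0318) and was 3.33-fold lower in WT leukemia (adjusted p = 0.00086), and these stage differences differed (interaction log2 2.28, SE 0.42, adjusted p = 0.024). Apart from the WT stage difference, these Clcf1 calls were lost when single samples were left out. The WT stage difference no longer passed with the marker component as a covariate. The interaction was lost without WT sample 15, 17, 18 or 19 (log2 2.13 to 2.58 over all omissions, adjusted p up to 0.143). The preleukemic genotype call was lost without sample 12, 13, 18, 19 or 22 (log2 difference -1.71 to -1.26, adjusted p up to 0.217). The rise in Pax5+/- leukemia was lost without sample 2, 3, 4, 7, 12, 13 or 22 (log2 difference 0.46 to 0.64, adjusted p up to 0.0736), and with median centring or quantile normalization. Stroma and endothelium markers, cells that express Lifr and Osmr, were higher in 8 of 10 cases in Pax5+/- and in 7 of 10 in WT leukemia, and their part in these rises was not tested.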

How the data were processed

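Total RNA was labelled with biotin by a WT Terminal Labeling Kit and read on 1-colour arrays, 1 per sample, per the labels' protocols. The values deposited by the authors are log2 probe set signals. Per the submitters' processing notes, Transcriptome Analysis Console was used (no version stated). Background correction, summarization and normalization are not given in the sources used here. Promoter windows and chromosomes are those of RefSeq (GRCm38.p6). The array's own build is not given in the sources used here, so gene positions are left out.

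Of 28944 probe sets, 21789 carried 1 symbol in the platform annotation, and 1621 with several and 5534 with none were left out. The brightest probe set stood for its symbol. Genes had to exceed their array's 30th percentile on 3 or more arrays; 15542 were kept and 4396 removed. The 4 groups entered 1 model in limma 3.58.1 (R 4.3.3), with lmFit and eBayes, an intensity trend and two-sided p-values adjusted by Benjamini-Hochberg over every gene tested (threshold 0.05). Folds are 2 raised to the log2 difference. Members were also compared by exact two-sided permutation, and correlated over 100000 permutations with scipy 1.17.1. The fits were also run on simulated data with independent noise and few changed genes, a setting unlike these arrays.

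The 7 genes, the 7 pathway lists and the marker lists were chosen with earlier results of these data known. Named genes are the members, up to 4 passing genes of smallest p per list and comparison, and the 3 genes most like each member. Alternatives were other filters, priors, array weights, normalizations, probe sets, covariates, blocks and groups in the fit, and omitted samples. Omitting samples 15, 17 and 20, or 2 and 6, was chosen after seeing the data.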

Additional observations from a re-analysis of the deposited data

Results flagged for a closer look

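In 1 of 14 groups of 4 to 10 samples, 1 sample lay far from the others: Pax5+/- leukemia 2 had a Socs3 log2 level of 7.81, where its gap to the next leukemia was 0.51 of the group's whole range. Chance flags about 1 in 20 groups. The same sample had the highest monocyte marker mean of its group, 9.35. Over the 10 leukemias Socs3 and that mean gave r = 0.60 (permutation adjusted p = 0.267), and -0.07 without leukemias 7 and 2. Between genotypes the stage difference of Clcf1, a cytokine related to oncostatin M, differed by 2.28 on the log2 scale (limma interaction, adjusted p = 0.024): it was higher in Pax5+/- leukemia (0.55) and lower in WT leukemia (-1.74). No stage difference of the 7 genes themselves differed between genotypes past the threshold.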

How the results depend on the processing

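In Pax5+/- mice the count of genes called between the stages was 6. It was 1 with the marker component as a covariate and ran from 5 to 7 when each sample was left out in turn. In WT mice the count was 2. It was 1 without the intensity trend, with a robust prior and with the mouse letter as a random block. It was 0 with no filter on low values, with only the groups of the contrast in the fit, with Xist as a covariate and with the marker component, and from 0 to 2 with 1 sample left out. For Socs1 the adjusted p in WT mice was 0.0508 without the trend, 0.0507 with the robust prior and 0.0519 with the block, so that call sat at the threshold. The WT samples carry no mouse letter and shared a single block in the block fit. That fit therefore made no adjustment by letter among WT samples. Among called differences, directions turned for Socs3 in Pax5+/- mice with its next brightest probe set (log2 difference -0.14) and for Socs1 in Pax5+/- mice with the marker component (0.057). Epor in WT mice turned to -0.025 without samples 15, 17 and 20, with 1 leukemia left. Among differences that had not passed, the marker component turned Osm in Pax5+/- mice (-0.0073) and, in WT mice, Pim1 (0.23), Socs3 (-0.079) and Osm (-0.10), and leaving out 1 sample turned the same 3 in WT mice. Median centring and quantile normalization ended the Socs3 call (0.22 and 0.12). Of the 26 named list genes in Pax5+/- mice, they ended 4 and 2 calls. The causes were not tested. The genotype and interaction counts were 0 under every alternative run. A filter at the 50th percentile changed no call of these genes. No paired analysis was possible because the groups share no replicate numbers. Signals near the array median limit the folds of Cish, Socs3 and Osm.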
